A study of Arabidopsis thaliana with 18 samples.

Results

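This account follows one culture experiment in wild-type Arabidopsis thaliana, cotyledons taken at 0 h and after 72 h of vascular induction. It used 6 of the 18 arrays of the series, those titled as wild type, with 3 arrays at each time. Each 72 h array was set against the 0 h array of the same replicate number. All 6 came from wild type (accession Col) and from cotyledons of seedlings grown for 6 days in liquid medium under continuous light. The 0 h cotyledons had not been cultured. The 72 h cotyledons had been kept in VISUAL medium, an induction culture. Its agents were 10 µM bikinin, 0.25 mg/L kinetin, which is a cytokinin, and 1.25 mg/L 2,4-D, a synthetic auxin. No 72 h sample without these agents was analysed here, so the agents, the excision and the time in culture cannot be told apart. The other 12 arrays held the mutants bes1-1 and bes1-3 under the same conditions, T-DNA insertion lines of BES1, a transcription factor of the brassinosteroid pathway. They shared the estimate of spread and served only for tests of whether the wild-type response differed from theirs.

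Vascular tissue arises from procambial cells, which divide and give rise to xylem on one side and phloem on the other. Xylem vessel cells lay down a patterned secondary wall of cellulose, xylan and lignin and then die and empty themselves. Sieve elements of the phloem lose their nucleus but stay alive and conduct sugars. Bikinin inhibits the GSK3-like kinases that hold back both brassinosteroid signalling and xylem differentiation, and in this culture leaf mesophyll is driven toward vascular fates.

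Values are log2 signals, so a difference of 1 is a doubling. On the deposited scale the replicate 1 arrays lay lower than the others, with medians of 5.26 and 5.43 against 5.91 to 6.15. The differences between times nevertheless had medians over all probe sets of -0.01, -0.00 and -0.09 in pairs 1, 2 and 3. Their spreads were similar (SD 1.20, 1.21 and 1.19), and correlations across probe sets between pairs were 0.852 to 0.856. At least 2-fold higher were 4807, 4934 and 3819 probe sets, and at least 2-fold lower 4894, 5037 and 5339. A call is an adjusted p below 0.05 in limma with replicate number as a block, and a group mean under the mean lower quartile of its arrays (3.81 at 0 h and 3.73 at 72 h) is described as near background. Whether the replicates were separate cultures is not stated in the labels, and the p-values therefore measure only how far these samples spread, which may be technical. In whole cotyledons, fewer cells of a type and less RNA per cell cannot be told apart.

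The cotyledon label fitted the 0 h arrays by its photosynthesis and chlorophyll markers, and less by the others. Of 15 nuclear photosynthesis genes measured, 14 had 0 h means above the mean upper quartile of 8.05, with a highest mean of 12.57. That quartile was also exceeded by 5 of 6 chlorophyll synthesis genes, 2 of 4 epidermal genes and 0 of 4 genes of the stomatal lineage. Among markers of other tissue, 3 of 6 genes of shoot meristem and leaf polarity exceeded it at 0 h. Of the 7 markers of root and callus primordia, which the culture could also hold, 0 h means ranged from 2.95 to 4.19 and 72 h means from 2.56 to 4.08, and none rose. The transcription factors and thermospermine genes of xylem differentiation were not analysed here, since the platform table named none of the 31 listed.

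Among 16411 annotated genes, 3525 (21.5%) rose and 3515 (21.4%) fell, and the median change was -0.07. A change of at least 2-fold in every pair was met by 1411 (8.6%) upward and 1307 (7.96%) downward. Over all 38408 probe sets, 18.9% rose and 20.8% fell, and 6.95% and 8.7% did so by 2-fold in every pair. The 0 h and 72 h signals did not overlap for 2481 genes higher at 72 h (15.1%) and 2516 lower (15.3%). These shares are the background against which each gene list below is to be read, and they depended on the fit. Without the replicate block 10.4% rose and 10.2% fell, and with arrays scaled to reference genes 15% rose and 32.6% fell. Over all probe sets that scaling called 4900 higher and 11475 lower. The 4 reference genes were not stable themselves: 2 were called higher and 1 lower, with changes from -0.35 to 0.93. Counts under that scaling therefore carry the movement of these genes. Counts of a list that moved by more than 1.5 times without the block, or whose balance turned with the scaling, are given beside it. Only 1762 of the genes carried a gene name other than their locus number, so many well known genes are outside the lists.

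**Figure D1:**
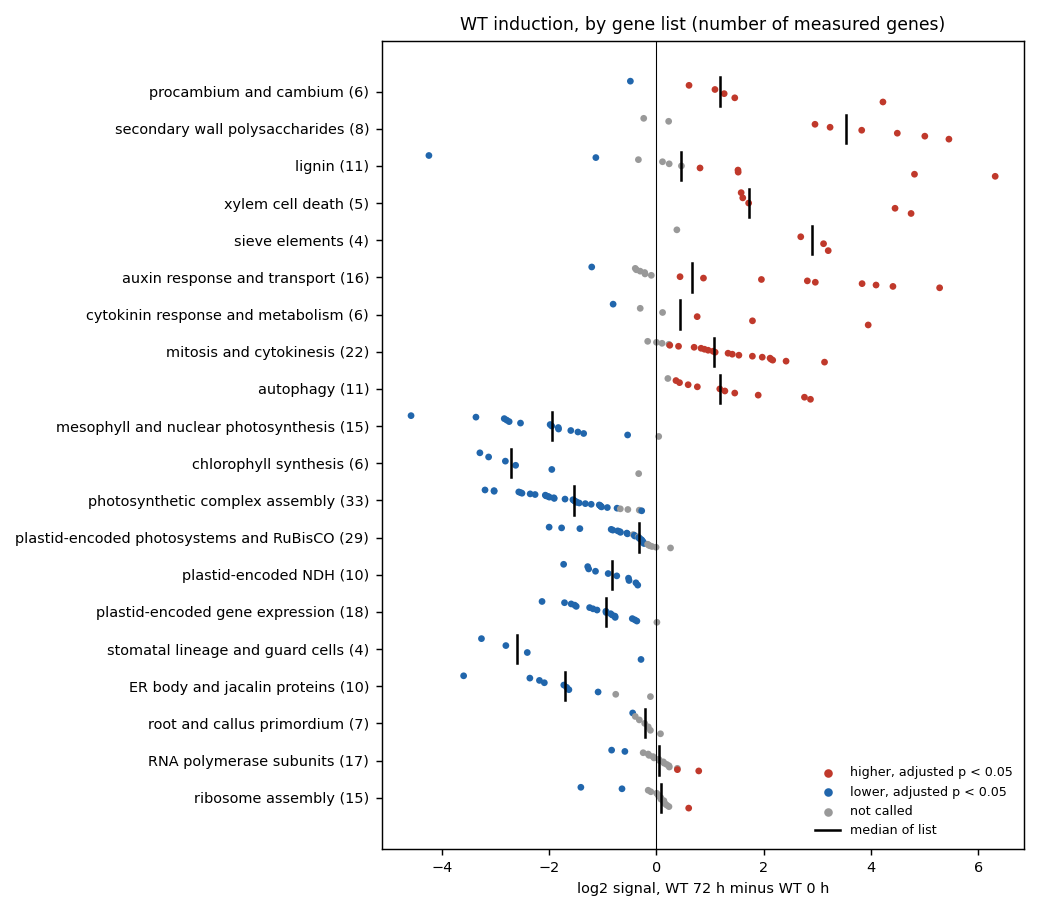
Log2 difference between 72 h and 0 h in wild type for each measured gene (points) of 20 lists, with list medians as black bars; red and blue points are called higher and lower, grey points are not called. The list of secondary wall polysaccharides (only xylan genes measured, median 3.53) lies to the right of 0. So does that of sieve elements (2.90, or 2.61 with the member near background at its bound). Those of chlorophyll synthesis (-2.72) and the stomatal lineage (-2.60, or -1.86 with MUTE at its bound) lie to the left.

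Genes of the procambium rose, led by the 2 that encode the peptide TDIF. This peptide is secreted by phloem, keeps procambial cells dividing and holds back xylem differentiation. CLE44 signals were 5.40, 6.36 and 7.36 at 0 h and 10.04, 10.86 and 10.89 at 72 h, in the order of replicates 1, 2 and 3, which is kept below. Every 72 h value exceeded every 0 h value, and CLE44 rose by 4.22 ± 0.24 (SE; adjusted p = 1.7e-08), an 18.7-fold change. CLE41, the other TDIF gene, started higher, at 7.93, 8.57 and 8.95, and reached 9.56, 10.06 and 10.22. Its rise was 1.46 ± 0.13 (adjusted p = 1.1e-06), so the difference on the log scale was smaller than that of CLE44. MOL1, a receptor kinase that restrains cambial activity, rose by 1.26 ± 0.15, and LHW, a bHLH factor required for divisions of vascular precursors in the root, by 1.09 ± 0.13. The 2 relatives of the TDIF receptor moved in opposite directions: PXL2 (AT4G28650) rose by 0.61 ± 0.14 and PXL1 (AT1G08590) fell by 0.48 ± 0.13. Neither reached 2-fold. A second, dimmer probe set gave 2.12 for PXL2 and -0.90 for PXL1, so the direction was shared and the size was not. In all, 5 of 6 measured members rose and 1 fell, with a median of 1.18. The calls of PXL1 and PXL2 were lost without the replicate block.

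The list of secondary wall polysaccharides, which covers cellulose and xylan, held 51 entries, of which 8 were measured. These 8 were all genes for xylan, the main hemicellulose of xylem walls, and no cellulose gene of the list was measured. Of the 8, 6 rose and none fell, with a median of 3.53, the largest of the lists. Grouped as a family, the 4 xylan synthesis genes had a median of 4.16, or 4.01 with the member near background at its bound. IRX15 and IRX15-L are a pair of related proteins needed for normal xylan deposition. IRX15 signals were 3.10, 3.14 and 2.78 at 0 h, near background, and 7.01, 8.53 and 8.48 at 72 h. Measured against the 0 h lower quartile, IRX15 was at least 18.3-fold higher at 72 h (adjusted p = 5.3e-08). IRX15-L was already present at 5.98, 7.01 and 6.51 and reached 10.53, 11.27 and 11.17, a rise of 4.49 ± 0.30. The pair thus began at different signals and both ended well above the 0 h range. GUT2 and GUT1 encode glycosyltransferases of the xylan backbone. GUT2 rose from 7.40, 8.11 and 8.08 to 11.18, 12.05 and 11.84, by 3.83 ± 0.18. GUT1 stood at 8.03, 9.10 and 9.09 before culture and at 8.25, 9.31 and 9.35 after it, and its change of 0.23 ± 0.09 was not called (adjusted p = 0.07). GUT2 gained 14.2-fold, while the groups of GUT1 overlapped.

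Xylan acetylation genes of the TRICHOME BIREFRINGENCE-LIKE (TBL) family also ranged from large rises to no call. TBL33 rose from 4.30, 5.22 and 5.34 to 9.84, 10.80 and 10.57, a change of 5.45 ± 0.29 (adjusted p = 9.0e-09). TBL34 rose by 3.24 ± 0.20, and TBL31, near background at 0 h, was at least 5.94-fold higher. TBL30 stayed near background at both times, with a difference of -0.24 ± 0.23. Across the 25 TBL genes measured, 14 rose and 6 fell, with a median of 0.48, and without the block 7 rose and 4 fell. TBL39 (3.39), TBL40 (AT2G31110, 3.09) and TBL36 (2.94) also rose, whereas TBL28 (-1.57) and TBL26 (-1.33) had the most negative changes. Enzymes that cut xylan rose too: the endoxylanase gene ATXYN3 (AT4G08160) went from 3.80, 5.48 and 5.08 to 9.55, 11.62 and 11.14, a rise of 5.98 ± 0.47. ATXYN5 (AT4G00890), near background at 0 h, was at least 2.75-fold higher, and ATXYN2 (AT1G10050) rose by 0.59 ± 0.16. All 4 measured glycosyltransferases of arabinogalactan proteins rose, by 1.73 for GALT29A (AT1G08280), 1.02 for GlcAT14B (AT5G15050) and less for the other two, but 1 of the 4 was called higher without the block.

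Lignin genes were mixed, with 5 of 11 higher, 2 lower and a median of 0.47, or 3 higher and 1 lower without the block. Lignin is made from monolignols, which peroxidases link in the wall. The peroxidase gene PRX72 (AT5G66390) had the largest rise on the lignin list. Its signals were 4.11, 4.999 and 4.56 at 0 h and 9.81, 11.69 and 11.12 at 72 h, a rise of 6.31 ± 0.27 (adjusted p = 1.8e-09), or 79.6-fold. PRX52 rose by 1.52 ± 0.35 and PRX25 (AT2G41480) by 0.81 ± 0.22. PRX71 (AT5G64120) went the other way, from 10.00, 10.36 and 11.02 to 5.79, 6.23 and 6.65, and fell by 4.24 ± 0.24. Prx37, outside the lignin list, fell by 3.25 ± 0.38. Of 8 peroxidase genes measured, 3 rose and 3 fell. Without the block 1 was higher and 2 lower, and with replicates 2 and 3 alone 1 and 3, as PRX52 and PRX25 lost their calls in both. HCT, an acyltransferase on the route to most monolignols, was high before culture at 10.05, 10.26 and 10.26 and rose to 11.51, 11.81 and 11.81, by 1.52 ± 0.12. BGLU45, a beta-glucosidase that frees monolignols from their glucosides, rose from 3.48, 3.42 and 4.58 to 7.36, 9.54 and 8.9999, by 4.81 ± 0.35. Its relative BGLU46 stayed near background at both times (-0.33 ± 0.22). Of the enzymes that attach glucose to monolignols, UGT72E1 fell by 1.13 ± 0.29, while UGT72E2 and UGT72E3 were near background at both times. BGLU47, another member of the beta-glucosidase family, rose by 5.23 ± 0.32, to 9.13, 9.19 and 9.16.

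Of the 18 entries on the list for xylem cell death 5 were measured, and all 5 rose, with a median of 1.72. They were 3 vacuolar processing enzymes and the carboxypeptidases scpl48 and SCPL49. The other proteases and the nucleases of the list were not measured. Vacuolar processing enzymes are cysteine proteases that activate other vacuolar proteins. ALPHA-VPE rose from 3.78, 4.62 and 3.97 to 7.72, 9.46 and 9.43, by 4.75 ± 0.25 (adjusted p = 9.2e-09). GAMMA-VPE and BETA-VPE, with 0 h means several units higher, rose by 1.72 ± 0.14 and 1.61 ± 0.27. The serine carboxypeptidase gene scpl48 was among the strongest signals after culture, going from 8.05, 8.77 and 8.60 to 12.53, 13.17 and 13.07, a rise of 4.45 ± 0.13. SCPL49 rose by 1.58 ± 0.12. In the wider carboxypeptidase family 10 of 32 measured genes rose and 5 fell, with a median of -0.00. The counts were 6 and 4 without the block and 8 and 8 when scaled to reference genes. Near background at both times were 13 of the 32. The largest rise there was that of scpl20, by 5.61 ± 0.16 to 9.77, 10.82 and 10.66, and the largest fall that of scpl42, by 2.12 ± 0.25.

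Phloem genes also rose. OPS (OCTOPUS), a membrane protein that promotes sieve element differentiation in the root, went from 2.99, 5.34 and 4.20 to 6.997, 7.41 and 7.47, a rise of 3.12 ± 0.35 (adjusted p = 8.9e-06). The 0 h values of OPS were widely spread, with an SD of 1.18 (n = 3), but none reached the 72 h range. CLE45, a peptide that restrains sieve element formation in the root, was near background at 0 h and at least 5.77-fold higher at 72 h. CLE25 rose by 2.69 ± 0.19 and CLE26 by 0.38 ± 0.20, the latter not called (adjusted p = 0.16). SWEET11, which exports sucrose from phloem parenchyma before loading, did the opposite: its signals were 11.09, 12.12 and 11.97 at 0 h and 6.55, 7.65 and 7.39 at 72 h, a fall of 4.53 ± 0.29 or 23.1-fold. SWEET11 was the only companion cell and phloem loading marker that was measured. Among the 16 SWEET sugar transporters 8 fell and 1 rose; that 1 was SWEET4 (2.22 ± 0.21). Without the block 4 fell and 1 rose.

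**Figure D2:**
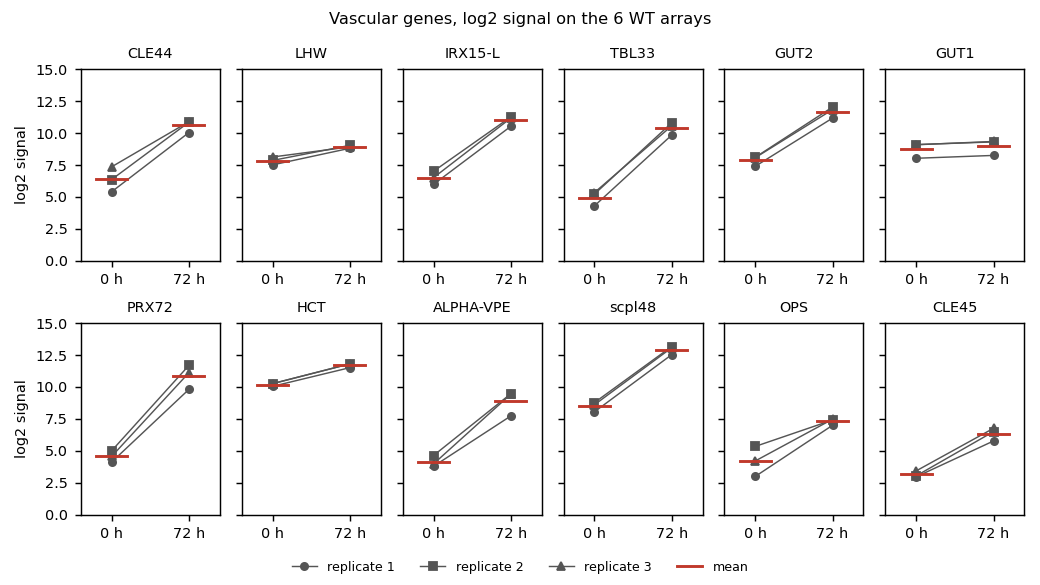
Log2 signal (y axis) of 12 vascular genes on the 6 wild-type arrays at 0 h and 72 h (x axis), with lines joining arrays of the same replicate number and red bars for group means of 3 arrays. The groups are apart for every gene shown except GUT1, and PRX72 (AT5G66390) shows the steepest rise, 6.31.

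Photosynthesis genes of the nucleus fell almost as a block: 14 of the 15 on the mesophyll list were lower, none was higher, and the median was -1.95. The antenna gene LHCB4.2 fell from 10.12, 10.38 and 10.40 to 7.40, 7.57 and 7.43, by 2.83 ± 0.39 (adjusted p = 6.0e-05). Its paralogue LHCB4.1 fell by 1.35 ± 0.16. LHCB4.3 was the member that was not called: it read 5.19, 6.19 and 6.56 before culture and 5.26, 6.40 and 6.41 after it, a difference of 0.04 ± 0.19. LHCB4.3 was also the dimmest member of the list. In the Calvin cycle, PRK (phosphoribulokinase) fell from 10.21, 10.92 and 10.81 to 7.15, 8.27 and 8.15, by 2.79 ± 0.32, and SBPASE by 2.74 ± 0.20. RCA, the activase of RuBisCO, fell by 1.59 ± 0.19 but still read 10.71, 10.99 and 10.91 at 72 h, so it remained among the bright transcripts. The steepest fall was that of NdhL, a subunit of the chloroplast NDH complex for cyclic electron flow, which fell by 4.57 ± 0.45 to 6.74, 6.79 and 7.46. NdhN fell by 3.36 ± 0.23.

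Chlorophyll synthesis showed the same direction, with 5 of 6 genes lower and a median of -2.72. HEME1 and HEME2 encode uroporphyrinogen decarboxylases of the shared heme and chlorophyll route. HEME1 dropped from 9.93, 10.38 and 10.42 to 6.78, 7.09 and 6.998, a change of -3.29 ± 0.16, and HEME2 changed by -3.13 ± 0.16. PORB, which reduces protochlorophyllide in light, fell by 2.81 ± 0.33, CHLM fell by 2.62 ± 0.16 and GSA1 by 1.95 ± 0.08. HEMA2, at an earlier step, changed by -0.33 ± 0.19 and was not called. Among 33 genes for assembly and upkeep of photosynthetic complexes, 30 fell and none rose, with a median of -1.53. The largest falls were those of CRR42 (-3.19 ± 0.25), PAM68 (-3.02 ± 0.20) and CURT1C (AT1G52220, -3.02 ± 0.19), which act in the assembly of NDH and photosystem complexes and in the curvature of thylakoid membranes.

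Genes carried by the plastid genome had smaller median falls than the nuclear lists and varied among themselves. Transcripts for photosystems, the cytochrome complex, the ATP synthase and RuBisCO had a median of -0.33, with 21 of 29 lower and none higher. The 10 NDH genes all fell, with a median of -0.82, and of 18 genes for plastid transcription and translation 17 fell, with a median of -0.94. psbA, for a photosystem II core protein, read 13.52, 13.70 and 13.69 at 0 h and 13.40, 13.72 and 13.76 at 72 h, a difference of -0.01 ± 0.08. rbcL, for the large subunit of RuBisCO, fell by 0.25 ± 0.08, a call lost without the block, with wild-type arrays alone, with replicates 2 and 3 alone, after quantile normalization and without any 1 of 4 arrays (0 h replicate 1 and each 72 h replicate), with adjusted p-values of 0.0507 to 0.475. Both lay close to the highest value on any wild-type array, 14.19, so a change of psbA or rbcL may be understated. The 0 h means of the photosystem list had a median of 13.36 and those of the NDH list 12.97. For plastid transcription and translation that median was 12.88, and for the nuclear mesophyll list 11.40. Whether the median falls of the plastid lists were also understated was not tested. The deepest fall was that of rps18, a ribosomal protein gene, from 12.34, 12.50 and 12.53 to 10.50, 10.14 and 10.34, by 2.13 ± 0.13. psbM fell by 2.00 ± 0.20, ndhF by 1.73 ± 0.15 and rpoB, a subunit of the plastid RNA polymerase, by 1.52 ± 0.10. The count for the first of these lists depended on the fit: 13 of 29 were lower after quantile normalization and 4 without the block, while none was higher in either. For the NDH genes these counts were 7 and 4 of 10.

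Genes of the stomatal lineage fell in all 4 cases measured, with a median of -2.60, or -1.86 with MUTE at its bound. The bHLH factors SPCH, MUTE and FMA act one after another, at entry into the lineage, at the end of its dividing phase and in guard cell formation. SPCH fell from 7.45, 8.09 and 8.29 to 3.66, 5.37 and 5.01; it fell by 3.26 ± 0.26 (adjusted p = 3.5e-07). MUTE fell from 4.49, 5.09 and 5.59 to 1.81, 2.69 and 2.25, near background, at least 2.5-fold. FMA changed far less, from 7.33, 8.23 and 7.87 to 6.92, 7.95 and 7.70. Its fall of 0.29 ± 0.08 was called in the fit used here, and its groups overlapped. That call was lost without the block, with wild-type arrays alone, with replicates 2 and 3 alone and without 0 h replicate 1, 0 h replicate 2 or 72 h replicate 1 (adjusted p = 0.0598 to 0.763), which leaves 3 of 4. STOMAGEN, a peptide made in mesophyll that promotes stomata in the epidermis, fell by 2.41 ± 0.29. Epidermal genes had no common direction: LCR, a fatty acid hydroxylase of cutin synthesis, rose by 1.25 ± 0.11, FDH fell by 0.67 ± 0.11, the trichome regulator TRY fell by 1.23 ± 0.28 and CR4 was not called. Among genes of leaf polarity, the abaxial factors YAB3 and YAB5 fell by 1.59 ± 0.11 and 0.94 ± 0.22, and PHV, an adaxial factor that also acts in vascular patterning, rose by 0.83 ± 0.20.

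**Figure D3:**
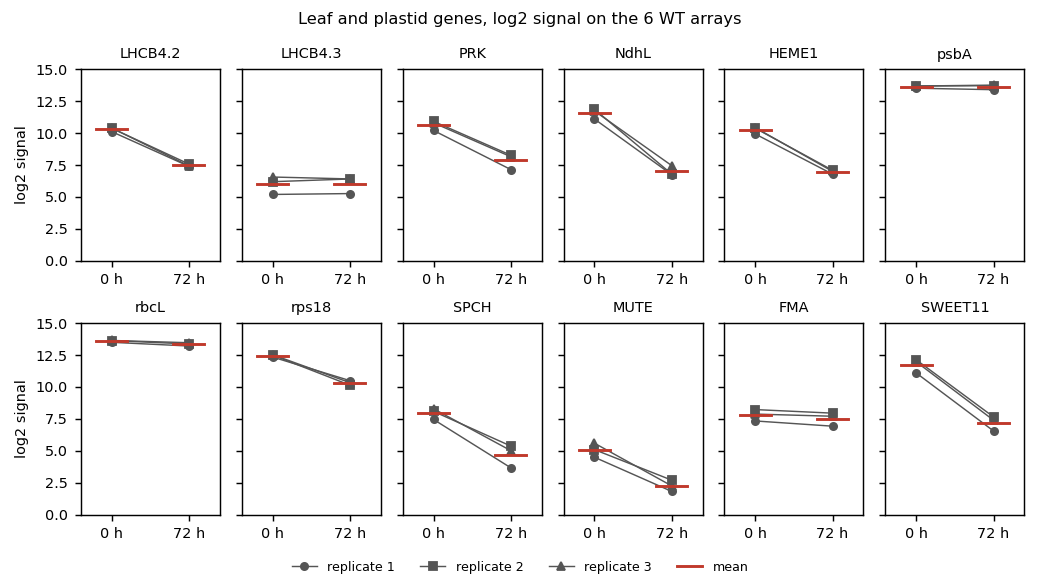
Log2 signal (y axis) of 12 leaf and plastid genes on the 6 wild-type arrays at 0 h and 72 h (x axis), with lines joining arrays of the same replicate number and red bars for group means of 3 arrays. NdhL, SWEET11 and HEME1 drop by 3.29 or more, whereas the groups of LHCB4.3, psbA and FMA overlap.

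Auxin response genes rose in part. In the auxin list 9 of 16 genes rose and 1 fell, with a median of 0.66, or 8 and 4 when scaled to reference genes. GH3.1, an enzyme that couples auxin to amino acids, had the largest rise, from 4.81, 5.56 and 5.57 to 10.87, 10.30 and 10.61, by 5.28 ± 0.25 (adjusted p = 3.6e-09). GH3.3 rose by 2.96 ± 0.25 and WES1, of the same family, fell by 1.20 ± 0.16. Aux/IAA proteins repress auxin response, and 5 of 8 measured genes rose. IAA29 rose by 4.41 ± 0.49. IAA30, IAA31 and IAA20 encode forms without the motif through which auxin triggers degradation, and all rose. IAA31 rose by 3.83 ± 0.54, and IAA20, near background at 0 h, was at least 2.44-fold higher. IAA30 read 1.34, 2.64 and 3.25 at 0 h, near background, and 5.53, 6.88 and 7.10 at 72 h, at least 6.46-fold higher. HAT2 rose by 1.96 ± 0.22, and WAG2, a kinase that acts on auxin efflux carriers, was at least 13.3-fold higher from near background. LBD16 and LBD29, auxin targets in lateral root and callus formation, stayed near background at both times, with differences of -0.22 ± 0.12 and -0.39 ± 0.29.

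Cytokinin response was measured through few genes, of which 3 of 6 rose and 1 fell, or 1 and 0 without the block. ARR15, a response regulator induced by cytokinin that damps its signal, read 3.18, 3.85 and 4.12 at 0 h, a mean near background, and 6.42, 8.58 and 7.99 at 72 h, at least 14.4-fold higher (adjusted p = 1.3e-06). RR16 rose by 1.79 ± 0.35. In the brassinosteroid list, BRL1, a receptor expressed in vascular tissue, rose by 1.98 ± 0.26 and the expansin EXPA8 by 3.57 ± 0.39, the 2 of 3 measured members that were called.

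Cell division genes rose. Of 22 genes for mitosis and cytokinesis 18 rose and none fell, with a median of 1.08. The 3 Aurora kinases, which act at the spindle and centromeres, rose by 3.13 ± 0.15 (AUR2), 2.17 ± 0.15 (AUR1) and 1.42 ± 0.16 (AUR3). AUR2 signals were 6.08, 6.43 and 6.60 at 0 h and 9.05, 9.75 and 9.71 at 72 h. The spindle checkpoint gene BUBR1 rose by 2.42 ± 0.15, KINESIN-12B of the phragmoplast by 2.12 ± 0.13, and the topoisomerase TOPII by 2.35 ± 0.12. HTR12, the centromeric histone, rose by 0.90 ± 0.11. Genes for replication and repair were less uniform, with 9 of 27 higher and 3 lower and a median of 0.13, against 2 and 2 without the block and 5 and 5 when scaled to reference genes. ICU2, a catalytic subunit of a replicative polymerase, differed by 0.02 and was not called. Of 17 microtubule genes 12 rose and 1 fell, or 6 and 1 without the block: TUB7 rose by 2.02 ± 0.12 and TUB1 by 2.00 ± 0.22, and TUB5 fell by 2.86 ± 0.34.

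Wall-loosening families split into a few strong risers and many members with no call. Of 19 expansins 5 rose and 3 fell, with a median of -0.11, but 5 and 8 did when arrays were scaled to reference genes and 5 and 0 without the block. EXPB3 rose from 5.23, 5.99 and 5.98 to 10.32, 10.09 and 10.60, by 4.61 ± 0.21. EXPA4 rose by 4.05 ± 0.23 and EXPA15 by 3.15 ± 0.21. Among GH9 endoglucanases 8 of 19 rose and 3 fell, with a median of 0.17, against 6 and 1 without the block. Scaled to reference genes 7 rose and 6 fell, and the GH9 endoglucanases had a median of -0.04. GH9B6 rose by 4.07 ± 0.25, GH9C2 by 3.72 ± 0.20, to a high signal of 12.69, 12.76 and 12.94, and GH9B8 by 3.17 ± 0.20. Among xyloglucan-modifying XTH genes 4 of 10 rose, XTH19 most (2.67 ± 0.34), and XTH16 fell by 1.61 ± 0.23, while scaling to reference genes gave 3 higher and 3 lower. CSLB03, of a cellulose synthase-like subfamily, fell by 3.73 ± 0.35.

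Autophagy genes rose in 10 of 11 cases, with none lower and a median of 1.18. ATG8 proteins coat the autophagosome membrane, and different members responded to different degrees. APG8A rose from 5.93, 6.69 and 6.38 to 8.48, 9.60 and 9.54, by 2.87 ± 0.19 (adjusted p = 5.4e-08). ATG8H rose by 2.76 ± 0.18 and ATG8B by 1.90 ± 0.18, while ATG8E, with 0.21 ± 0.28, was not called. Without the block 5 of the 11 were called higher. Among senescence markers, SAG101 fell by 1.67 ± 0.18 and SAG29 fell by 1.77 ± 0.65, and 3 of 4 measured fell in all, or 1 without the block. The call of SAG29 was lost without the block (adjusted p = 0.068) and without any 1 of 5 arrays, 0 h replicates 1 and 3 and each 72 h replicate (adjusted p = 0.0848 to 0.135).

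Defence and specialised metabolism held several of the deepest falls. Of 16 genes on the defence list 2 rose and 7 fell, with a median of -0.53. The defensin gene PDF1.2, a marker of jasmonate and ethylene defence, read 7.85, 7.26 and 8.38 at 0 h and 1.24, 1.45 and 1.45 at 72 h, near background and at least 17.1-fold lower (adjusted p = 8.1e-05). PDF1.2b was at least 35.8-fold lower. These copies are close in sequence, so the probe sets of PDF1.2 and PDF1.2b may share signal. ECS1 fell from 10.84, 11.19 and 11.37 to 3.29, 4.83 and 5.01, by 6.76 ± 0.45 or 108-fold. Other peptides of the defensin superfamily rose: PDF2.1 from near background to 9.05, 8.21 and 9.06, at least 31.2-fold, and LCR25 by 6.68 ± 0.24, from 2.94, 4.74 and 4.51 to 10.09, 11.11 and 11.05. LCR25 was the largest rise among genes with a name, a ranking drawn up after the values were seen. Of 70 LCR and SCRL peptides 2 rose and 1 fell (1 and 0 without the block, 2 and 14 when scaled to reference genes). Most of that family was not called, but 58 of the 70 were near background at both times, where a change could be missed. Genes of the ER body, a seedling organelle that stores the beta-glucosidase PYK10 against herbivores, fell in 8 of 10 cases with a median of -1.70, or -1.36 with members near background at their bounds. PYK10 fell from 12.71, 13.14 and 13.16 to 10.22, 10.67 and 11.06, by 2.36 ± 0.23, and JAL34, a jacalin-related lectin, by 3.59 ± 0.19. NAI2, which forms the organelle, fell by 2.18 ± 0.22. The immune transcription factors WRKY29 and WRKY22 fell by 3.65 ± 0.19 and 3.17 ± 0.18, the 2 that fell of 7 WRKY genes measured, of which 2 rose, with a median of 0.06.

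Among single genes with known products, FAMT, a farnesoic acid methyltransferase, was at least 58.4-fold lower at 72 h, and the metallothionein MT1B at least 10-fold lower. MSRB9, a methionine sulfoxide reductase, fell from 10.46, 10.44 and 10.53 to 5.78, 5.55 and 5.48, by 4.87 ± 0.16. PIF7, a phytochrome-interacting factor that responds to shade, fell by 3.63 ± 0.21. DFR, at the branch to anthocyanins, fell by 3.43 ± 0.56, with the widest pair differences of these genes (-5.18, -2.07 and -3.04). Upward, AMY1, an alpha-amylase, rose by 4.80 ± 0.32, the glutathione transferase GSTF4 by 5.21 ± 0.23, and the dehydration protein LEA27 (AT2G46140) by 5.18 ± 0.11. GSTU25, near background at 0 h, was at least 11.1-fold higher. Of 54 UDP-glycosyltransferases 7 rose and 21 fell (5 and 12 without the block), and of 21 CYP71B cytochromes P450 2 rose and 11 fell (0 and 7 without it). The MADS factor AGL93 rose by 4.38 ± 0.61 and AGL53, from near background, was at least 8.81-fold higher. In that family 11 of 67 were higher and 8 lower, or 8 and 15 when scaled to reference genes and 5 and 2 without the block. Near background at both times were 46 of the 67.

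Other families stayed close to the median of all genes. Of 17 subunits of nuclear RNA polymerases 2 rose and 2 fell, with a median of 0.06. Of 15 genes for ribosome assembly 1 rose and 2 fell, of 14 for protein folding in the endoplasmic reticulum 1 rose and 1 fell, and of 18 for the TCA cycle and citrate lyase 3 rose and 2 fell. All of these shares lie below the 21.5% and 21.4% of all genes.

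The largest changes belonged mostly to loci without a gene name in the tables used, and they are given by locus. The largest rise with both groups above background was that of AT1G47271, from 3.12, 4.37 and 4.86 to 10.996, 11.23 and 11.77, by 7.22 ± 0.27 (adjusted p = 5.4e-10). It was followed by AT1G70500 (7.08 ± 0.33) and AT3G63050 (6.98 ± 0.17). AT2G31540 and AT5G40020, near background at 0 h, were at least 146-fold and at least 180-fold higher. In the other direction AT3G20395 read 11.34, 11.64 and 11.34 at 0 h and 2.43, 3.47 and 3.73 at 72 h, at least 209-fold lower. AT2G45180 fell by 6.65 ± 0.64 and AT2G36690 by 6.59 ± 0.40. Among all called genes with 1 sign in every pair, 457 of those higher had a 0 h mean near background and 634 of those lower a 72 h mean near background, and their folds are bounds.

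The wild-type response was then tested against that of each mutant. These differences share the wild-type arrays and are given side by side. Each can come from the 0 h or the 72 h level of a mutant, and those levels are not given here. Against bes1-1, 904 genes (5.51%) changed more upward in wild type and 613 (3.74%) more downward. Against bes1-3 the counts were 127 (0.774%) and 94 (0.573%). Over all probe sets the counts were 1641 (4.27%) and 1558 (4.06%) against bes1-1 and 229 (0.596%) and 202 (0.526%) against bes1-3. Without the replicate block, 12 and 8 probe sets were called against bes1-1 and 0 and 0 against bes1-3. These differences thus rest on matching replicates. Leaving out 1 wild-type array at a time gave 1014 to 1748 probe sets higher and 456 to 2636 lower against bes1-1. Against bes1-3 that gave 69 to 181 and 25 to 127 probe sets, every count below the 229 and 202 from all arrays. Of the 8 secondary wall polysaccharide genes, 5 rose more in wild type than in bes1-1 and none was called against bes1-3. IRX15 rose by 5.003 in wild type, 2.24 in bes1-1 and 3.73 in bes1-3, a difference of 2.76 ± 0.46 (adjusted p = 0.0046) and of 1.27 ± 0.46 (adjusted p = 0.22). Since IRX15 lay near background at 0 h in wild type, these are fitted values and their sizes are uncertain. Of the autophagy genes 8 of 11 rose more in wild type than in bes1-1 and none was called against bes1-3. ALPHA-VPE rose by 4.75 in wild type, 1.27 in bes1-1 and 2.18 in bes1-3, and was called against both. The wild-type rises of scpl28 (2.93), BGLU45 (4.81) and PRX72 (AT5G66390, 6.31) were also larger than in either mutant. None of the procambium and sieve element genes was called against either: CLE44 rose by 4.22, 4.60 and 4.00 in wild type, bes1-1 and bes1-3. The differences for CLE44 were -0.38 ± 0.34 and 0.22 ± 0.34. Of the 22 mitosis genes, 4 rose less in wild type than in bes1-1 and 1 more, and 3 rose less than in bes1-3. HTR12 rose by 0.90 against 1.43 and 1.83. Of the 15 nuclear photosynthesis genes, LHCB4.3 was called against both, with differences of 1.26 ± 0.27 and 1.55 ± 0.27.

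**Figure D4:**
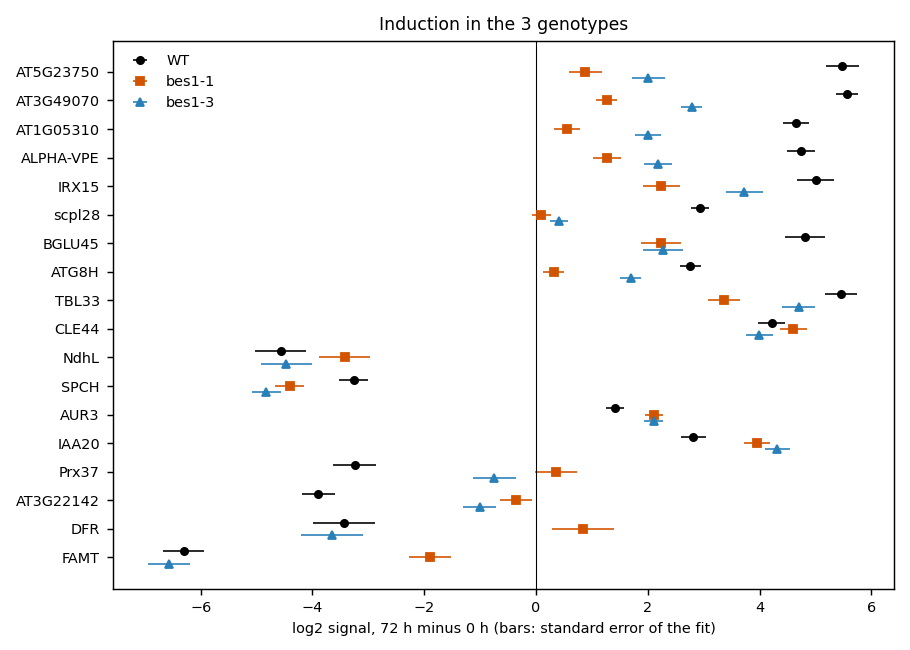
Log2 difference between 72 h and 0 h (x axis, bars are the standard error of the fit, 3 arrays a group) for 18 genes in wild type, bes1-1 and bes1-3; IRX15 and IAA20 at 0 h and FAMT at 72 h were near background in wild type, so their sizes are uncertain. Wild type lies highest for ALPHA-VPE (4.75), scpl28 (2.93) and BGLU45 (4.81), and the 3 genotypes lie together for CLE44 (4.22, 4.60 and 4.00).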

How the data were processed

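Total RNA of 18 samples was hybridised to 1 Affymetrix array each. The authors deposited log2 signals for 38408 probe sets (the log base was read from their range). Per the submitters' processing notes the tool was Affymetrix Expression Console; its version, background correction and normalization: not given in the sources used here. Of the probe sets, 16722 were listed with 1 gene in the platform table, 759 with several and 20927 with none, and 16411 loci were matched to the TAIR10.1 gene table, used for names and synonyms only. For 143 loci with several probe sets the brightest stood for the gene. No sequences are shown, as none was in the tables used.

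All 18 arrays were fitted in R 4.3.3 with limma 3.58.1 (lmFit and eBayes), with 6 group means and replicate number as a fixed block (10 residual degrees of freedom), and p-values were adjusted by Benjamini-Hochberg over all probe sets. The block followed a check that same-numbered wild-type arrays deviated together from their group means (r = 0.465, 0.227 and 0.228), while other numbers gave -0.335 to 0.147. Between replicates 2 and 3 alone, the difference at 0 h correlated with that at 72 h by only 0.0895. Tested on simulated data for the wild-type induction over 38408 probe sets, 58% of log2 changes of 1 and 87% of changes of 2 were called, with 3 false calls. Only 100 probe sets were changed at each size, far fewer than were called in the real data, and the noise was normal and independent. These figures therefore do not give the recovery or false calls of the real fit.

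Genes, lists and tests were chosen with earlier results of these data known. Genes were named from the top of 4 rankings among called genes with 1 sign in all pairs: the largest changes with both means above the lower quartile, the largest with 1 mean below it, the largest in each list, and the largest differences between genotypes. Further genes were named after their values were seen, and families grouped by gene symbol were made once the annotated names had been read. The number of arrays limits the precision. Alternatives were no block, wild-type arrays alone, replicates 2 and 3 alone, quantile normalization, scaling to 4 reference genes, leaving out dim probe sets, counting identical probe sets once, a 4-fold limit and leaving out each array. BES1 was not analysed here.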

Additional observations from a re-analysis of the deposited data

Results flagged for a closer look

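For the genes below the test of the difference in induction between wild type and a mutant was passed. Values are the wild-type change minus the mutant change in log2 signal, with adjusted p-values from limma with the replicate block. AT5G23750 differed by 4.60 from bes1-1 (adjusted p = 1.88e-04) and by 3.48 from bes1-3 (0.0046), and AT3G49070 by 4.30 (5.44e-05) and 2.78 (0.0017). ALPHA-VPE differed by 3.47 and 2.57, scpl28 by 2.84 and 2.52, BGLU45 by 2.57 and 2.54 and PRX72 (AT5G66390) by 2.87 and 2.15. In the mutants scpl28 changed by 0.10 (bes1-1) and 0.42 (bes1-3), and neither change was called. All differences share the wild-type arrays. IRX15 and IAA20 at 0 h and FAMT at 72 h were near background in wild type, so the sizes of their differences are uncertain.

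The following were tested and passed against bes1-1 and did not pass against bes1-3, which does not show that the mutants differ: IRX15 differed by 2.76, TBL33 by 2.09, GUT2 by 1.49, ATG8H by 2.45, HCT by 1.52 and RR16 by 2.28. HCT changed by -0.00 in bes1-1 and rose by 1.52 in wild type.

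LHCB4.3, the photosynthesis gene with no call in wild type, differed by 1.26 and 1.55, with changes of -1.22 in bes1-1 and -1.51 in bes1-3. HTR12 rose less in wild type, with differences of -0.54 and -0.93, and so did IAA20, with -1.14 and -1.51. Falls deeper in wild type were those of Prx37 (-3.60 against bes1-1 and -2.50 against bes1-3) and AT3G22142 (-3.54 and -2.89). FAMT and DFR differed from bes1-1 by -4.41 and -4.28, with changes of -1.90 and 0.85 in that mutant. Mutant signals at 0 h and 72 h are not given here. Whether a difference listed in this section lay at 0 h or at 72 h therefore cannot be read from it.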

How the results depend on the processing

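The calls depended on pairing arrays by replicate number. With no replicate block 3342 probe sets were higher and 4152 lower in the wild-type induction, against 7268 and 7982 with it. For the difference from bes1-1 the counts without the block were 12 higher and 8 lower in wild type against 1641 and 1558, and with replicates 2 and 3 only they were 312 and 129. For the difference from bes1-3 (229 and 202) both alternatives gave 0 and 0 in limma, with 975 and 4048 probe sets at an unadjusted p under 0.05. Quantile normalization gave 121 lower against bes1-3, leaving out dim probe sets 337, and scaling to the reference genes 151 higher and 71 lower. Asking for 4-fold in place of 2-fold in every pair left 1214 higher and 1207 lower of 2670 and 3342. Leaving out each array in turn gave 6277 to 7302 higher and 7001 to 7315 lower in the wild-type induction. At 2-fold it gave 2909 to 3117 and 3533 to 3802, but only the remaining pairs had to reach 2-fold, a looser rule. Against bes1-1 it gave 1014 to 1748 higher and 456 to 2636 lower, with 877, 2636 and 456 lower without 0 h replicates 1, 2 and 3 and 961, 544 and 703 without 72 h replicates 1, 2 and 3, and with 1014 higher without 0 h replicate 3 and 1090 without 72 h replicate 2. Against bes1-3 it gave 69 to 181 higher and 25 to 127 lower; higher counts were 128, 100 and 89 without 0 h replicates 1, 2 and 3 and 71 and 69 without 72 h replicates 2 and 3, and lower counts were 61, 56 and 58 without the 0 h and 127, 25 and 25 without the 72 h replicates. Scaling to the reference genes moved the median of all probe sets from -0.03 to -0.24 and the share of calls that were higher from 47.7% to 29.9%. The cause of these shifts was not tested.

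Of 162 named genes, 148 were called in the wild-type induction and 132 kept their call under every alternative run for single genes. A reversed direction was counted only where the gene was called in either fit, and none was found. Calls lost numbered 15 without the block, 9 with replicates 2 and 3 alone, 5 with wild-type arrays alone, 2 after scaling to the reference genes and 1 after quantile normalization. Those lost without the block were PXL1 (AT1G08590), PXL2 (AT4G28650), ATXYN2 (AT1G10050), PRX25 (AT2G41480), GlcAT14B (AT5G15050), FMA, HTR12, LHCB4.1, PRX52, RR16, SAG29, TRY, UGT72E1, YAB5 and rbcL.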

Other observations

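Counts in transport and trafficking families were mixed in the wild-type induction. Of 14 NPF and nitrate transporters 3 rose and 5 fell (1 and 3 without the replicate block), against 21.5% and 21.4% of all annotated genes. NPF4.3 (AT1G59740) rose by 2.26 ± 0.19 and NPF3.1 (AT1G68570) fell by 3.55 ± 0.22 (-1.49 on a second, dimmer probe set). Of 10 glutamate receptor-like channels 3 rose and 3 fell (2 and 1 without the block), and GLR2.8 rose by 3.07 ± 0.32 while GLR3.5 fell by 2.50 ± 0.20. Of 9 CHX exchangers 0 rose and 1 fell, and none of 4 purine permeases was called in limma. Of 12 tetraspanins 3 rose and 2 fell (3 and 6 when scaled to reference genes), of 9 exocyst genes 3 rose and none fell (1 without the block), and of 5 genes of the vacuolar proton pump 2 rose and none fell (1 without the block). Of 9 actin-binding NET genes 6 rose and none fell, but 2 rose without the block. Of 13 ESCRT genes, whose products sort membrane cargo to the vacuole, 5 rose and 2 fell (3 and 4 when scaled to reference genes, 2 and 0 without the block), and VPS2.2 rose most, by 3.12 ± 0.20. These families were made once the annotated names had been read.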
